A study of Mus musculus with 16 samples.

Results

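Adrenergic receptors are the cell surface receptors for noradrenaline and adrenaline, and 6 of their genes were followed here across the dorsal hippocampus of mice that had or had not learned an avoidance task: Adra1a, Adra1b and Adra1d of the alpha1 class, Adra2a and Adra2c of the alpha2 class, and Adrb1 of the beta class. The members were taken by gene symbol from the 24972 genes listed for each library, and all 6 were found. They were selected on their normalized values in these trained and untrained libraries, with earlier results known, so their differences between trained and untrained animals are given as a description without a test. Bulk RNA sequencing had been done on CA1, CA3 and dentate gyrus (DG) tissue, 16 libraries from 6 adult mice of 3 to 4 months, all carrying the ArcCreERT2::eYFPflx genotype on a C57BL/6 background, in which the Arc promoter drives the inducible Cre. Trained mice were shocked in a fixed zone of a rotating arena (active place avoidance), whereas untrained mice explored the same arena with the shock off. The retention test followed 24 h after the final training session, and brains were taken 60 min later. Each library held the pooled microdissected pieces of one subregion of one animal, with every cell type in them and no sorting for the reporter. There were 3 trained and 3 untrained CA1 libraries, 3 trained and 2 untrained CA3 libraries, and 3 trained and 2 untrained DG libraries.

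Noradrenaline reaches the hippocampus along axons of the locus coeruleus. Alpha1 receptors couple to Gq proteins, which activate phospholipase C and raise intracellular calcium, while alpha2 receptors couple to Gi/o proteins, which lower cAMP and act on potassium and calcium channels. Beta receptors couple to Gs proteins, which stimulate adenylyl cyclase, and beta signalling is known for its part in hippocampal plasticity and memory retrieval.

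The kinship of the 6 genes is shown by the stretch of coding sequence around the Asp-Arg-Tyr motif, a signature of rhodopsin-like receptors at the inner end of the third transmembrane helix that is used in G protein coupling. The sequences were read from the GRCm38 genome with GENCODE vM21 gene models, 5′ to 3′ on the coding strand. Capitals mark the in-frame Asp, Arg and Tyr codons.
Adra1a, chr14:66637914-66637982, + strand, exon 2 of 3: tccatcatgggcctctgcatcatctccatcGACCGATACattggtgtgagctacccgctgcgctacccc
Adra1b, chr11:43835627-43835695, - strand, exon 4 of 5: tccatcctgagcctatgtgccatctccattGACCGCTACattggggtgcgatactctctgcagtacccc
Adra1d, chr2:131561572-131561640, - strand, exon 1 of 2: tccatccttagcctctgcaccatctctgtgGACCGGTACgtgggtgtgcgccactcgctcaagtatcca
Adra2a, chr19:54046617-54046685, + strand, exon 1 of 1: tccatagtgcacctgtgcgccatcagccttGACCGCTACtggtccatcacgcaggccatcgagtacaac
Adra2c, chr5:35280297-35280365, + strand, exon 1 of 1: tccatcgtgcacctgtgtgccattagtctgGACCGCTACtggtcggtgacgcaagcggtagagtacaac
Adrb1, chr19:56722804-56722872, + strand, exon 1 of 1: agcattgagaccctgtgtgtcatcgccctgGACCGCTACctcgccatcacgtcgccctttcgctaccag
Over these 69 bases the alpha2 pair was the most alike, with 82.6% of bases identical. The alpha1 genes shared 72.5% to 78.3% with each other, and Adra1d and Adrb1 were the least alike at 46.4%. No run of 31 bases was shared between the annotated exons of any 2 genes of the family. In Adra1d, 147 of the 1899 exonic bases also lie in an exon of the antisense gene Gm14285, which was not analysed here, and the counting was not stated to use strand, so reads from these bases cannot be told apart.

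The deposited values were taken to be estimated read counts already scaled between libraries, an inference from their decimals and nearly equal sums. The values of a library summed to between 7607326 and 7984931. The original depth is unknown. The libraries differed in how many of the listed genes were at 0, with 7567 to 9759 in 7 libraries (all trained CA1, trained CA3 1 and 2, and both untrained DG) and 3124 to 5944 in the other 9. Transcripts of the sex chromosomes also followed training. Xist, made by the inactive X, was between 7601.3 and 19592.0 in all 9 trained libraries and in CA3 untrained 1, and between 25.5 and 52.4 in the other 6 untrained libraries, although the study's methods give 2 female and 1 male trained mice and 1 female and 2 male untrained mice. The CA3 untrained 1 library had an Xist value of 10587.5 while CA1 and DG of untrained 1 had 26.1 and 25.5. The Y-linked Ddx3y was at 201.4 in CA3 untrained 1. In DG trained 3, Xist at 7601.3 stood beside 255.2 for Ddx3y. Ddx3y was also at 100.6 in CA1 trained 3, 92.9 in CA3 trained 3 and 70.9 in CA1 trained 1. Sex and training therefore cannot be told apart in these libraries, and values without CA3 untrained 1 or DG trained 3 are given where they bear on a member.

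The subregion labels were checked against 3 lists of 6 marker genes each. The summed dentate granule cell markers (Prox1, C1ql2, Dsp, Stxbp6, Pdzd2 and Tdo2) lay between 7930 and 10330 in the libraries labelled CA1, between 7550 and 12590 in those labelled CA3, and between 8918 and 11350 in those labelled DG, so they did not separate the labels. Prox1 alone, the transcription factor of granule cells, lay between 3052 and 3861 in CA1, 2690 and 4786 in CA3, and 3292 and 4183 in DG. The summed CA1 pyramidal markers (among them Wfs1, Fibcd1, Mpped1, Pou3f1 and Man1a) lay between 1898 and 5709 in CA1, above all CA3 libraries at 1107 to 1852 but overlapping DG at 1598 to 2384. Within CA1 they were at 1898 to 2352 in the trained and 3590 to 5709 in the untrained libraries. The summed CA3 pyramidal markers lay between 8525 and 12060 in CA1, 10020 and 13350 in CA3, and 10830 and 13020 in DG. They did not separate the labels either. The subregion names below are those of the labels.

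**Figure D1:**
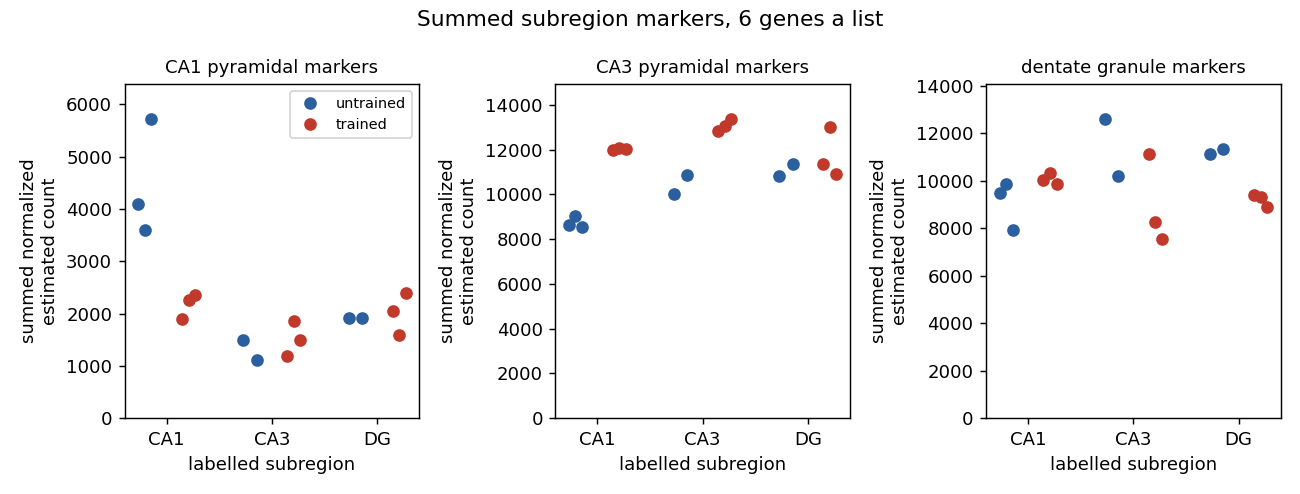
Summed normalized estimated counts of the 6 markers of CA1 pyramidal, CA3 pyramidal and dentate granule cells (y axes, from 0) by labelled subregion (x axes), one point per library, blue for untrained and red for trained. Granule markers were as high in the libraries labelled CA1 and CA3 as in those labelled DG, and CA3 pyramidal markers overlapped between the labels. Within CA1 the CA1 pyramidal markers were lower and the CA3 pyramidal markers higher in the trained libraries.

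Adra1d made up most of the adrenergic receptor signal. Per kb of annotated exon it ranked first of the 6 genes in 16 of 16 libraries, with a value of 204 ± 44.3 per kb (SD, n = 16), and it was between 4.31 and 12.16 times the next member, with a median of 7.31. Adra2c followed at 28.2 ± 4.68 per kb and Adrb1 at 23.1 ± 3.52 per kb, and these genes took ranks 2 and 3 in every library. Adra2a, at 9.28 ± 1.84 per kb, and Adra1a, at 9.19 ± 1.95 per kb, had overlapping ranges. Adra1b was last in 15 libraries, at 4.16 ± 1.36 per kb. The annotated Adra1d transcript is short, 1899 bases against 3382 to 8728 bases of exon for the other members, and an incomplete model would raise its value per kb. With the length of the main transcript in place of all exons, the ratio of Adra1d to the next member was still between 4.31 and 12.06, and Adra1a was at 18.7 ± 3.97 per kb, above Adra2a.

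Outside the 6 members, Adra2b and Adrb3 were scarce. Adra2b was between 0 and 13.5 and Adrb3 between 0 and 6.9, and neither passed the filter on low values (at least 10 in enough libraries for a group).

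Adra1d, the alpha1D receptor gene (ENSMUSG00000027335, chr2:131545850-131562283, - strand, 2 exons), was higher in trained than in untrained libraries of each subregion. In CA1 its values were 386.7, 445.7 and 449.6 in trained 1 to 3 and 382.1, 307.0 and 317.5 in untrained 1 to 3. The groups did not overlap, but the highest untrained library lay close below the lowest trained one. In CA3 the trained values were 403.3, 492.4 and 517.9 and the untrained values 252.1 and 291.1, and in DG the trained values were 475.2, 432.7 and 450.4 and the untrained values 276.4 and 313.5. Both of these subregions showed a wide gap between the groups. Every trained library lay above every untrained one in 12.9% of all tested genes in CA1, 17.2% in CA3 and 17.5% in DG. In bulk tissue, more cells that express a gene and more RNA per cell cannot be told apart.

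On the scale of log2(value + 2), the Adra1d change was 0.35 (SE 0.099) in CA1, 0.79 (SE 0.12) in CA3, 0.62 (SE 0.101) in DG and 0.57 (SE 0.074) over all subregions. Whether the change differed between subregions was not tested. Of all tested genes, 1.62% had every trained library above every untrained one in each of the 3 subregions, as Adra1d had. These comparisons were part of the choice of the members, so nothing is read from this share.

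Single libraries moved the size of the Adra1d change. With animals left out in turn it was 0.29 to 0.45 in CA1, lowest without untrained 2 and highest without untrained 1. It was 0.68 (without untrained 1) to 0.89 (without trained 1) in CA3 and 0.53 (without untrained 1) to 0.71 (without untrained 3) in DG. Over all subregions it was 0.53 to 0.62. The direction was fixed by the choice of the gene and lends it no support.

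A score of sex-linked transcripts was also used as a covariate over all subregions, for which the log2 value of Xist was subtracted from the average log2 value of 4 Y-linked genes. With it the Adra1d change was 0.80 with a standard error of 0.171, against 0.57 and 0.074 without it, and limma gave 0 genes past an adjusted p of 0.05 among the 14673 tested, with 1702 at an unadjusted p under 0.05. CA3 untrained 1 was the one untrained library on the high-Xist side, with a score of -6.19 and the lowest Adra1d value of all 16 libraries (252.1). It also held the Y-linked Ddx3y at 201.4. DG trained 3, with the highest Ddx3y among the trained libraries, had a score of -5.53 and an Adra1d value of 450.4. Without both libraries the change over all subregions was 0.51. Over the 16 libraries, which share animals, the Pearson correlation of Adra1d with the score was -0.72. CA3 untrained 1 and DG trained 3 each held Xist and Ddx3y together, and sex-linked transcripts and training cannot be told apart in these data.

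Markers of neurons and other cells moved in the same comparisons as Adra1d. In CA1 the summed CA3 pyramidal markers were 11990 to 12060 in the trained and 8525 to 9043 in the untrained libraries, with 4 of 6 genes higher and 1 lower in the trained, and in CA3 the sums were 12830 to 13350 against 10020 to 10880. The summed pan-neuronal markers (5 genes) were 42180 to 43060 against 36730 to 38510 in CA1, with 3 of 5 genes higher, and 42740 to 47190 against 39590 to 42200 in CA3. In DG both of these lists overlapped between the groups, at 10920 to 13020 against 10830 to 11370 and 43520 to 43990 against 43210 to 45730. There the granule markers were lower in the trained libraries, at 8918 to 9404 against 11140 to 11350 with 2 of 6 genes lower, and so were the endothelial markers, at 312.6 to 351.5 against 521.1 to 613.3 with 1 of 4 genes lower. Further sums in DG did not overlap although 0 of their genes passed the threshold in limma, with oligodendrocyte markers at 14040 to 15210 in the trained and 15880 to 20350 in the untrained libraries, mural cell markers at 482.9 to 496.7 against 500.4 to 586.2, and interneuron markers at 3928 to 4075 against 3504 to 3885. At an unadjusted p under 0.05 there were 2 of 6, 1 of 6 and 2 of 8 genes in these lists. The mural cell genes in DG had 3 positive and 3 negative changes, with a list median of 0.01. In CA1 the astrocyte markers were 66220 to 68070 against 63420 to 64970, with 0 of 8 genes higher and 1 lower, and the endothelial markers 607.2 to 676.8 against 578.7 to 602.6. In CA3 the choroid plexus markers were 234.6 to 310.6 in the trained and 798.4 to 1104 in the untrained libraries, with 2 of 4 genes lower and a list median of -2.09 on the log2 scale, and the leptomeningeal markers were 177.5 to 196.6 against 262.4 to 285.4, with 0 of 5 genes past the threshold in limma and 1 at an unadjusted p under 0.05. Interneuron markers in CA3 overlapped, at 3562 to 4106 against 3338 to 3867, with 1 of 8 genes higher and a list median of 0.26. In CA1 the sums of the mural cell, granule, leptomeningeal and choroid plexus markers overlapped. Their list medians were 0.63 (1 of 6 genes higher), 0.17 (1 of 6 higher), -0.25 (1 of 5 lower) and -1.78 (0 of 3 past the threshold). Microglial, oligodendrocyte precursor and thalamic marker sums overlapped in all 3 subregions. Over the 16 libraries, which share animals, the Pearson correlation of Adra1d was 0.61 with the CA3 pyramidal, 0.55 with the pan-neuronal, 0.51 with the interneuron, -0.62 with the granule, -0.48 with the choroid plexus and -0.49 with the leptomeningeal markers, and between -0.41 and 0.31 with the other 8 cell type lists. Their part in the result was not tested.

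**Figure D2:**
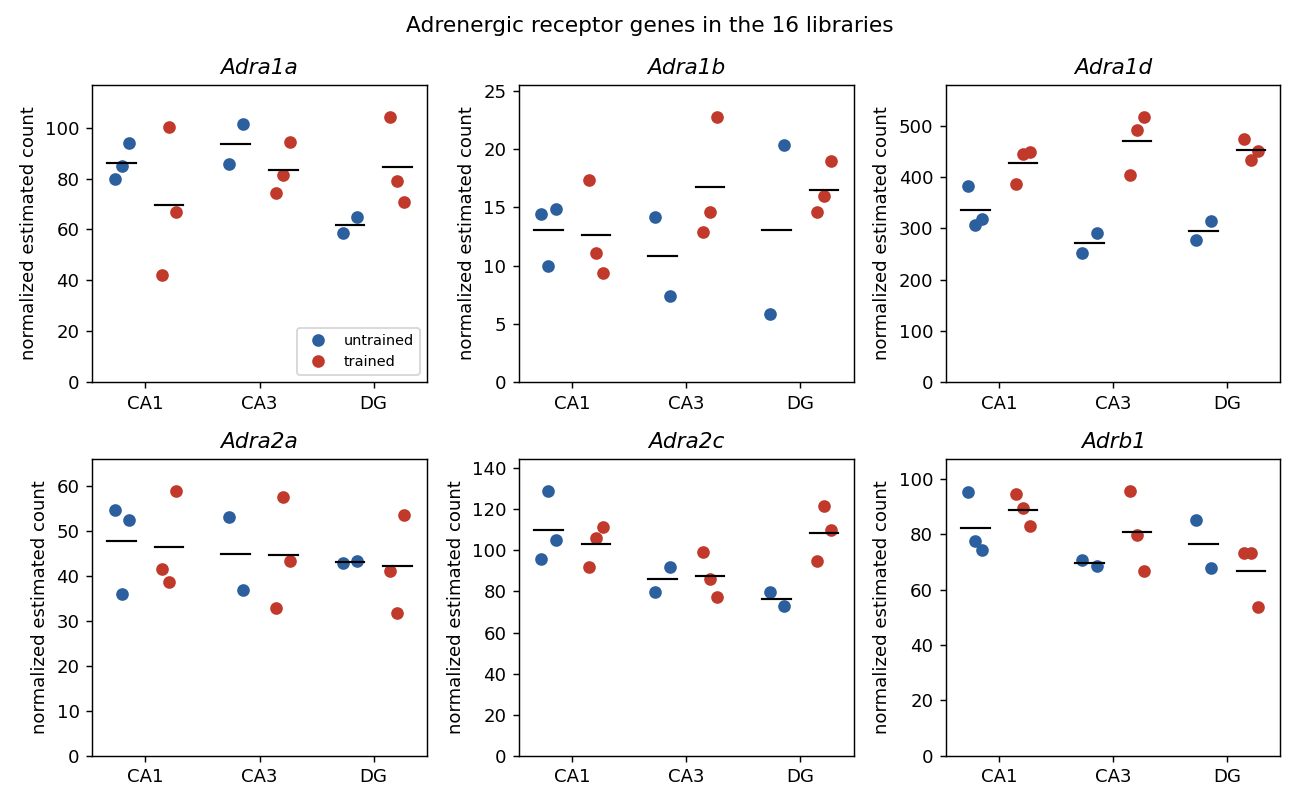
Normalized estimated count (y axes, from 0, a different scale in each panel) of the 6 receptor genes in every library by labelled subregion (x axes), blue for untrained and red for trained, with black bars at group means. Adra1d trained libraries lay above the untrained in CA1, CA3 and DG, and Adra1a and Adra2c trained libraries lay above the untrained in DG, while the other panels overlap.

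Adra1a and Adra1b, the remaining alpha1 genes, showed no such pattern. Adra1a (ENSMUSG00000045875, chr14:66635251-66771168, + strand) had values of 42.1, 100.2 and 66.9 in trained CA1 and 79.7, 85.0 and 93.8 in untrained CA1, so that the trained libraries spread around the untrained. In CA3 they were 74.5, 81.3 and 94.3 against 85.9 and 101.6, again overlapping. In DG they were 104.3, 78.9 and 70.9 against 58.7 and 64.7, with every trained library above every untrained one. The log2 changes were -0.38 (SE 0.245) in CA1, -0.17 (SE 0.16) in CA3 and 0.43 (SE 0.208) in DG. With an animal left out the Adra1a change ranged from -0.68 (without trained 2) to -0.07 (without trained 1) in CA1, from -0.29 (without untrained 1) to -0.05 (without untrained 2) in CA3, and from 0.27 (without trained 1) to 0.54 (without trained 3) in DG. The Pearson correlation of Adra1a with the number of genes at 0 per library was -0.58, and both untrained DG libraries were among those with many genes at 0; the part of this in the DG difference was not tested.

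Adra1b (ENSMUSG00000050541, chr11:43774606-43901210, - strand) was near the floor of detection, at 5.8 to 22.8, and reached 10 in 12 of 16 libraries. Its trained and untrained libraries overlapped in all 3 subregions. The widest pair was untrained DG, at 5.8 and 20.4. The log2 changes of -0.07 (SE 0.404) in CA1, 0.57 (SE 0.406) in CA3 and 0.48 (SE 0.463) in DG had the largest standard errors of the 6 genes in each subregion, and the DG value became -0.28 without untrained 1 and 1.24 without untrained 3. In CA3 it was 0.17 without untrained 2 and 0.96 without untrained 1, and in CA1 -0.29 without trained 1 and 0.09 without trained 3.

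Adra2a (ENSMUSG00000033717, chr19:54044151-54048982, + strand) encodes the alpha2A receptor, which also serves as the inhibitory autoreceptor of noradrenergic cells. It was at 41.5, 38.6 and 58.9 in trained and 54.5, 36.0 and 52.3 in untrained CA1. In CA3 it was at 32.8, 57.4 and 43.2 against 53.0 and 36.7, and in DG at 41.1, 31.8 and 53.5 against 42.7 and 43.3. The groups overlapped in every subregion. The log2 changes were close to 0 in each subregion, at -0.04 (SE 0.238), -0.02 (SE 0.26) and -0.06 (SE 0.266). With an animal left out the Adra2a change took either sign, from -0.22 to 0.08 in CA1, -0.28 to 0.23 in CA3 and -0.24 to 0.12 in DG.

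Adra2c (ENSMUSG00000045318, chr5:35278319-35281763, + strand), the alpha2C receptor gene, overlapped between the groups in CA1, at 92.0, 106.2 and 111.3 in trained against 95.8, 129.2 and 104.9 in untrained libraries. It also overlapped in CA3, at 99.2, 85.9 and 77.3 against 79.7 and 92.1. In DG the trained values of 94.7, 121.7 and 109.8 were all above the untrained values of 79.9 and 72.9. The log2 changes were -0.08 (SE 0.158), 0.02 (SE 0.16) and 0.49 (SE 0.179). With an animal left out the Adra2c change in DG was 0.41 to 0.59, and in CA1 and CA3 it took either sign, from -0.18 to 0.04 and from -0.08 to 0.12. In DG, then, 3 of the 6 members had every trained library above every untrained one, where 17.5% of all tested genes did, again a comparison the choice had used.

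Adrb1 (ENSMUSG00000035283, chr19:56722199-56733113, + strand), the beta1 receptor gene, did not separate the groups in any subregion. In CA1 it was at 94.4, 89.5 and 82.9 in trained and 95.3, 77.4 and 74.3 in untrained libraries. The CA3 values were 95.8, 79.6 and 66.7 against 70.7 and 68.4, and the DG values 73.4, 73.3 and 53.6 against 85.2 and 67.8. The log2 changes were 0.12 (SE 0.166) in CA1, 0.19 (SE 0.177) in CA3 and -0.20 (SE 0.214) in DG. With an animal left out the Adrb1 change was 0.05 to 0.22 in CA1, 0.07 to 0.32 in CA3, and in DG -0.36 (without untrained 3) to -0.04 (without untrained 1). It was -0.05 in DG without trained 3, the library with the lowest Adrb1 value of all.

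Adrb1 varied between libraries together with transcripts of blood vessels. The 2 genes most like it over the 16 libraries were Slco1a4, an endothelial transporter, and Cdh5, the cadherin of endothelial junctions, each with a Pearson correlation of 0.87, and after the group means were removed the correlations were 0.78 and 0.90. The summed endothelial markers Cldn5, Pecam1, Flt1 and Ly6c1 had a correlation of 0.78 with Adrb1. These markers were at 578.7 to 676.8 in CA1, 365.3 to 706.1 in CA3 and 312.6 to 613.3 in DG. In DG they were 312.6 to 351.5 in the trained and 521.1 to 613.3 in the untrained libraries, and in CA1 607.2 to 676.8 against 578.7 to 602.6; their part in the Adrb1 changes was not tested. Adrb1 also had a correlation of 0.61 with the number of genes at 0, and the libraries share animals, so these are descriptions.

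**Figure D3:**
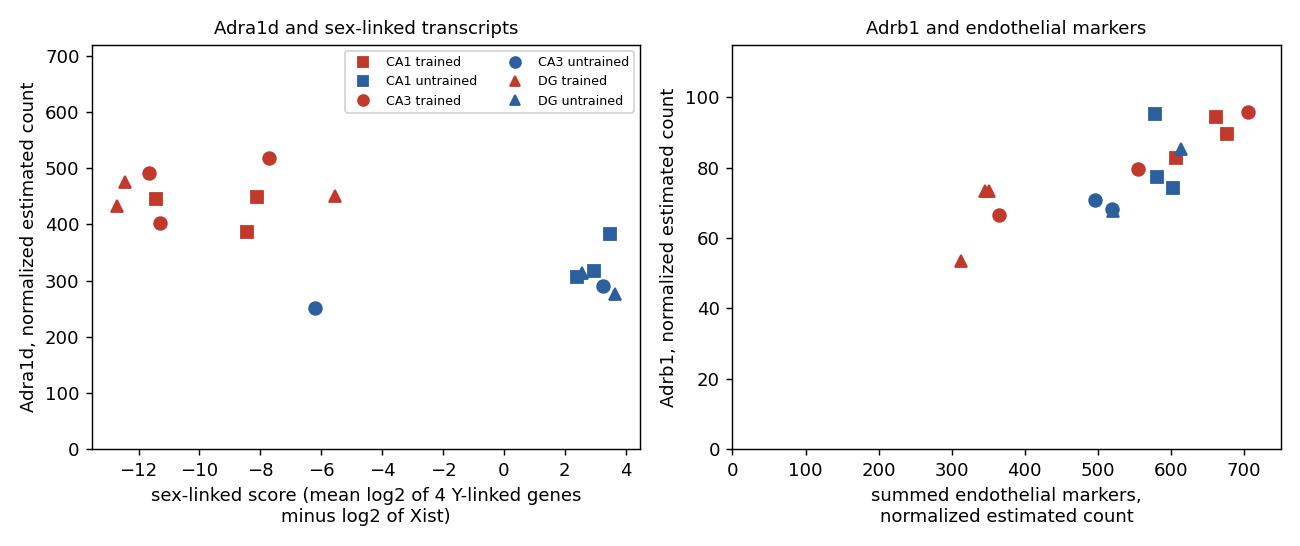
Left, Adra1d (normalized estimated count) against the sex-linked score (log2 scale, lower with more Xist); right, Adrb1 against the summed endothelial markers (both normalized estimated counts). Each point is a library, red trained and blue untrained, squares CA1, circles CA3, triangles DG; the CA3 untrained 1 library (score -6.19) had the lowest Adra1d value, and Adrb1 was higher where endothelial markers were higher.

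**Figure D4:**
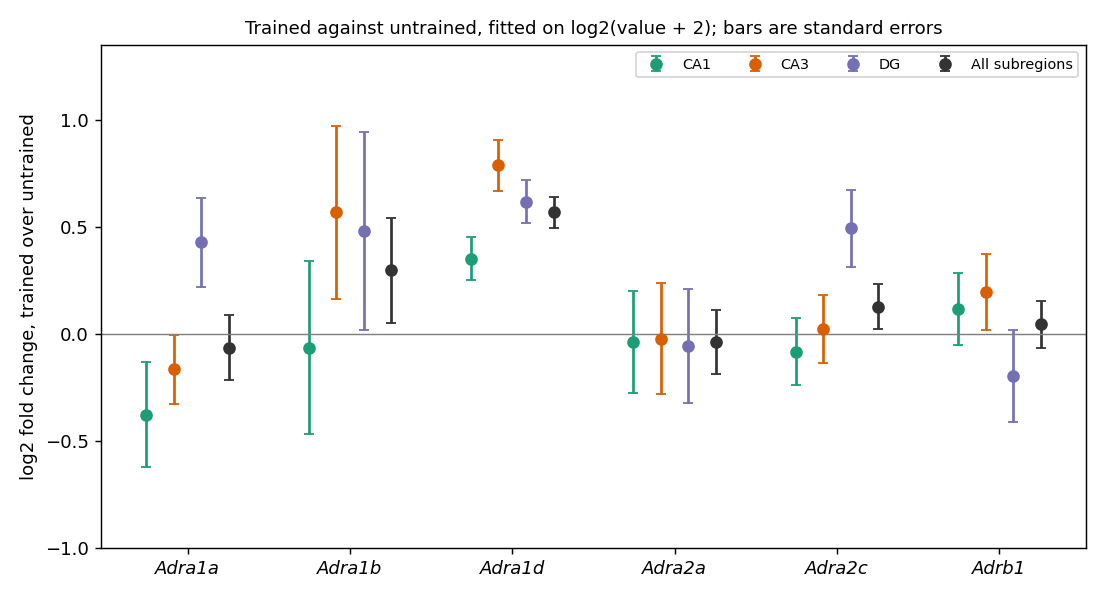
Log2 fold change of trained over untrained, fitted on log2(value + 2), for each of the 6 genes (x axis) in CA1, CA3, DG and all subregions with subregion as a covariate; bars are standard errors. Adra1d lay between 0.35 and 0.79 in every comparison, while each of the other genes except Adra1b in CA3 and DG, Adra1a in DG and Adra2c in DG lay between -0.38 and 0.30.

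The 6 members together had a median log2 change of -0.05 in CA1, 0.11 in CA3, 0.45 in DG and 0.08 over all subregions, beside medians of 0.00, -0.01, 0.00 and -0.01 over all tested genes. The sum of the 5 members other than Adra1d was 287.4 to 345.6 in trained and 337.7 to 340.3 in untrained CA1, and 304.4 to 318.8 against 303.6 to 306.3 in CA3. In DG it was 306.7 to 328.0 against 269.1 to 272.3. Per kb of exon, Adra1d accounted for 73.6% to 79.9% of the 6 genes in trained libraries and 65.8% to 72.2% in untrained ones. The ranges did not overlap, but this share restates the Adra1d difference that the choice of members had used, so nothing is read from it.

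**Figure D5:**
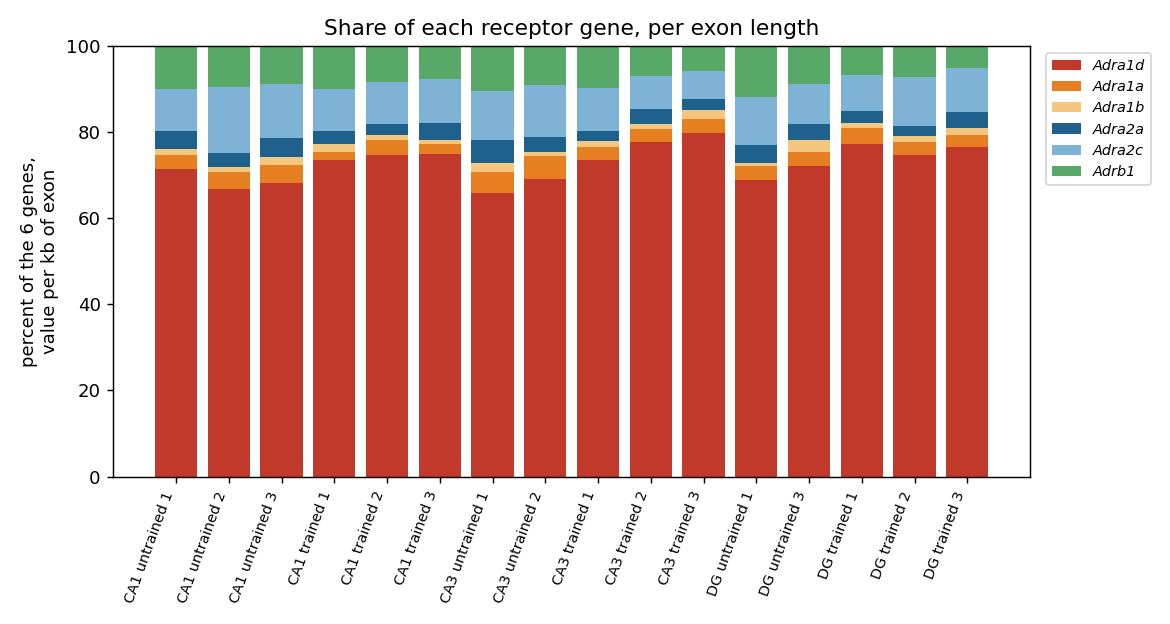
Share of each of the 6 receptor genes in their summed value per kb of exon (y axis, percent) for each of the 16 libraries (x axis). The Adra1d share was 73.6% to 79.9% in trained and 65.8% to 72.2% in untrained libraries, a difference that the choice of members had used. Adra1a, Adra1b and Adra2a each stayed below 6%.

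The labelled subregions were compared within animals as numbered in the labels, a question that the choice of members had not used. For untrained 1 this pairing is uncertain, with Xist at 10587.5 in CA3 against 26.1 in CA1 and 25.5 in DG. The order of the mean levels was CA3 (391 ± 118, SD, n = 5), DG (389.6 ± 88.7, n = 5) and CA1 (381 ± 60.7, n = 6) for Adra1d, and no neighbours in this order differed beyond their spread. These means pool 3 trained and 3 untrained libraries in CA1 but 3 and 2 in CA3 and DG, so their order also carries training. The fits below, with the animal as a block, take up training. Of the 6 members, 0 passed an adjusted p of 0.05 in limma between CA1 and DG, CA1 and CA3, or CA3 and DG, where 1.86%, 0.316% and 0% of all 13926 tested genes did. Of the 6 CA1 pyramidal, 6 CA3 pyramidal and 6 granule markers, 0 passed in any of them. This held although the CA1 pyramidal list median was 1.03 between CA1 and CA3. The result for the members therefore does not show that they were alike between subregions. At an unadjusted p under 0.05, CA3 and DG differed in 644 genes, or 4.62%. For Adra1d the log2 differences were 0.05 between CA1 and DG (95% interval -0.15 to 0.25), 0.05 between CA1 and CA3 (-0.15 to 0.25) and -0.002 between CA3 and DG (-0.22 to 0.21).

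Adrb1 and Adra2c came nearest to a difference between subregions. Adrb1 was at 85.7 ± 8.83 in CA1 (SD, n = 6), 76.2 ± 11.98 in CA3 and 70.7 ± 11.4 in DG (n = 5 each). CA1 exceeded DG by 0.30 on the log2 scale (95% interval 0.05 to 0.56, limma adjusted p = 0.1983). The medians of the summed endothelial markers were 605 in CA1, 520.0 in CA3 and 351.5 in DG, and their part in this difference was not tested. Adra2c was at 107 ± 13.2 in CA1, 95.8 ± 20.3 in DG and 86.8 ± 8.98 in CA3. CA1 exceeded CA3 by 0.33 (95% interval 0.07 to 0.59, limma adjusted p = 0.3359). Neither held after adjustment over all genes. The intervals for Adra1a, from -0.43 to 0.40 between CA1 and DG, and for Adra1b, from -0.68 to 0.61, allowed sizeable differences in either direction. Adra2a differed by 0.20 (-0.16 to 0.55) between CA1 and DG. Since the granule and CA3 pyramidal markers did not separate the labels, these intervals describe the labelled tissue pieces.

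The members did not vary as a group over the libraries. Pearson correlations between pairs of them, on log2(value + 2) over the 16 libraries, ranged from -0.34 for Adra1b with Adrb1 to 0.45 for Adra1b with Adra1d. After group means were removed they ranged from -0.61 for Adra1b with Adra2c to 0.48 for Adra1a with Adra1d. The genes most like each member among 10763 with a mean value of at least 50 were Etfb (0.79), Rtf2 (0.78) and Zfp467 (0.78) for Adra1a, Hspbp1 (0.82), Rad23b (0.80) and Cep19 (0.79) for Adra1b, and Atp9a (0.88), Lztr1 (0.88) and Pfkp (0.87) for Adra1d. Pfkp, the platelet isoform of phosphofructokinase, still had 0.80 with Adra1d after group means were removed, whereas the lipid flippase gene Atp9a had 0.33. For Adra2a they were 1700047I17Rik2 (0.81), Ilk (0.77) and Amz2 (0.73), for Adra2c they included Nop9 (0.78) and Oraov1 (0.78), and for Adrb1, after Slco1a4 and Cdh5, Exd2 (0.85). Adra1b had a correlation of 0.69 with summed interneuron markers, at counts too low for more than a description.

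The signalling arms downstream of each receptor class were followed with lists of their genes. An adjusted p under 0.05 (limma's moderated test, adjusted over all genes) was reached by 5.23% of all tested genes in CA1 (3.53% higher and 1.7% lower in trained), 0.852% in CA3 (0.737% and 0.116%), 3.39% in DG (1.74% and 1.66%) and 10.3% over all subregions (6.28% and 4.06%). Marker lists moved in the same comparisons: in trained CA1 the CA1 pyramidal markers were lower (list median -0.94 on the log2 scale) and the CA3 pyramidal markers higher (median 0.48), with higher sums of the pan-neuronal, astrocyte and endothelial markers, in trained CA3 the sums of the choroid plexus and leptomeningeal markers were lower and those of the CA3 pyramidal and pan-neuronal markers higher, and in trained DG the sums of the granule, endothelial, oligodendrocyte and mural cell markers were lower and that of the interneuron markers higher. In DG, however, the mural cell genes split into 3 positive and 3 negative changes (list median 0.01). In CA1 the mural cell list had a median of 0.63 with 1 of 6 genes higher. The CA1 granule list had 1 of 6 genes higher and the CA1 leptomeningeal list 1 of 5 lower. The part of all these markers in the calls was not tested. When the sex-linked score entered the fit, 0 genes passed over all subregions in limma (1702 at an unadjusted p under 0.05), so every call over all subregions given here was lost there. In the Gq arm of the alpha1 receptors, 2 of 16 tested genes were higher and 1 lower in trained CA1, 2 and 0 in CA3, 1 and 1 in DG, and 1 and 0 over all subregions, and the list's median log2 change lay between -0.07 and 0.09. Dgkb, a diacylglycerol kinase that removes the lipid product of phospholipase C, rose by 0.25 (SE 0.054, limma adjusted p = 0.00905) in CA1, by 0.35 (SE 0.065, adjusted p = 0.0101) in DG and by 0.31 (SE 0.052, adjusted p = 0.000816) over all subregions. The last call held with any animal left out (adjusted p up to 0.0267) but was lost with the sex-linked covariate (change 0.43, adjusted p = 0.147), while the CA1 call was lost without trained 1, trained 2 or untrained 1 (0.0503 to 0.0711) and the DG call without trained 2 (0.0797). In one fit of all 6 groups the CA1 calls of Dgkb and Prkce were lost (0.0987 and 0.0658). The inositol trisphosphate receptor gene Itpr1 had a change of -0.31 in CA1 (SE 0.068, adjusted p = 0.0224), lost without untrained 1 (0.0975). Of the protein kinase C genes, Prkce rose by 0.16 in CA1 (SE 0.041, adjusted p = 0.0225), lost without trained 2, trained 3 or untrained 1 (0.0939 to 0.111). Prkcb rose by 0.49 in CA3 (SE 0.081, adjusted p = 0.0266), lost without trained 2, untrained 1 or untrained 2 (0.121 to 0.248) and with no robust estimation (0.0508). Prkcd changed by -0.60 in DG (SE 0.119, adjusted p = 0.0144), lost without trained 1, 2 or 3 (0.0583 to 0.0838).

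In the Gi/o arm of the alpha2 receptors, 1 of 13 tested genes was higher in trained CA1 and 2 in CA3, 0 of 12 changed in DG, and 3 were higher and 1 lower over all subregions, with list medians between -0.00 and 0.21. Cacna1b, the N-type calcium channel that Gi/o proteins inhibit at terminals, rose by 0.22 over all subregions (SE 0.046, limma adjusted p = 0.00317), which held with any animal left out (up to 0.0464) but was lost with the sex-linked covariate (change 0.26, adjusted p = 0.362). Its rise of 0.40 in CA3 (SE 0.07, adjusted p = 0.0324) was lost without trained 2, trained 3, untrained 1 or untrained 2 (0.0537 to 0.264). The P/Q-type channel gene Cacna1a rose by 0.23 in CA1 (SE 0.053, adjusted p = 0.0126), lost without trained 2 or untrained 1 (0.0833 to 0.0917). Hcn2, a cyclic nucleotide-gated channel gene, rose by 0.49 in CA3 (SE 0.087, adjusted p = 0.0327), lost without trained 2, untrained 1 or untrained 2 (0.121 to 0.248) and with no robust estimation (0.0508). The G protein gene Gnaz rose by 0.26 over all subregions (SE 0.066, adjusted p = 0.0116), lost without trained 2, untrained 1 or untrained 2 (0.0654 to 0.237), with a change of 0.15 without untrained 1. The potassium channel gene Kcnj9 changed by -0.24 (SE 0.077, adjusted p = 0.0468), lost without trained 2, trained 3, untrained 1 or untrained 2 (0.0573 to 0.410), or with no filter (0.0564), and the change was -0.12 without untrained 1. With the sex-linked covariate Gnaz and Kcnj9 had adjusted p of 0.561 and 0.619.

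In the Gs and cAMP arm of the beta receptors, 26 genes were tested. In CA1 1 was higher and 1 lower, in CA3 1 was higher, in DG 1 was lower, and over all subregions 4 were higher and 1 lower, with list medians between -0.03 and 0.11. Crtc1, a coactivator of CREB, rose by 0.33 in CA1 (SE 0.048, limma adjusted p = 0.000268) and by 0.23 over all subregions (SE 0.049, adjusted p = 0.00446), and both calls held with any animal left out (up to 0.00595 and 0.0374). With the sex-linked covariate the Crtc1 change over all subregions fell to 0.08 (adjusted p = 0.871). The adenylyl cyclase gene Adcy3 rose by 0.29 over all subregions (SE 0.06, adjusted p = 0.00312), which held with any animal left out (up to 0.0355) but was lost with the sex-linked covariate (change 0.40, adjusted p = 0.251). The calcium-stimulated cyclase gene Adcy8 went the other way, with -0.46 in CA1 (SE 0.114, adjusted p = 0.0217), lost without trained 2, untrained 2 or untrained 3 (0.0553 to 0.103), and -0.33 over all subregions (SE 0.081, adjusted p = 0.0102), lost without untrained 1 (0.145) and with the sex-linked covariate (change -0.49, adjusted p = 0.301). Adcy5 rose by 0.48 in CA3 (SE 0.092, adjusted p = 0.0407), lost without trained 2, untrained 1 or untrained 2 (0.164 to 0.265) and with no robust estimation (0.0664). The phosphodiesterase gene Pde4a changed by -0.38 in DG (SE 0.097, adjusted p = 0.0413), lost without trained 1, 2 or 3 or untrained 1 (0.108 to 0.190) and with no robust estimation (0.0672), and without untrained 1 the Pde4a change was -0.24.

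Among the 7 tested receptor kinases and arrestins, which silence active receptors, 1 was higher and 1 lower over all subregions. Grk2 rose by 0.17 (SE 0.048, limma adjusted p = 0.025), lost without trained 1, trained 2, untrained 1 or untrained 2 (0.0958 to 0.210), and Grk5 changed by -0.41 (SE 0.113, adjusted p = 0.0212), lost without trained 2, trained 3 or untrained 1 (0.0762 to 0.192). With the sex-linked covariate the changes were 0.11 for Grk2 and -0.26 for Grk5 (adjusted p = 0.787 and 0.788). Of 16 RGS genes, whose proteins shorten G protein signals, Rgs6 was the 1 lower over all subregions, with a change of -0.46 (SE 0.084, adjusted p = 0.00125) that held with any animal left out (up to 0.0127) but was lost with the sex-linked covariate (change -0.69, adjusted p = 0.146). Rgs6 also changed by -0.74 in CA3 (SE 0.136, adjusted p = 0.0369), lost without trained 2, trained 3, untrained 1 or untrained 2 (0.0547 to 0.320) and with no robust estimation (0.0517), and Rgs5 by -0.51 in DG (SE 0.127, adjusted p = 0.0464), lost without trained 1, 2 or 3 or untrained 1 (0.106 to 0.211). The Rgs5 change was -0.24 without untrained 1 and -0.77 without untrained 3, and the call was also lost with a pseudocount of 0.5, no robust estimation or one fit of all groups (0.0509 to 0.161).

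Genes of noradrenaline synthesis and release had low values. The cell bodies of noradrenergic axons lie in the brainstem, outside the dissected tissue. Th, the first enzyme of the pathway, was at 0 to 7.91, Dbh, which makes noradrenaline, at 3.19 to 31.5, and the transporter gene Slc6a2 at 0 to 18.9. The breakdown enzyme gene Maoa was well detected, at 171 to 211. Of the 9 tested genes of synthesis, transport and breakdown, only the low-affinity transporter gene Slc29a4 passed over all subregions, with -0.23 (SE 0.071, limma adjusted p = 0.0393), lost without trained 2, trained 3, untrained 1 or untrained 2 (0.0782 to 0.396), with no filter (0.0646) and with the sex-linked covariate (0.505), and the Slc29a4 change was -0.13 without untrained 1.

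Of the 17 tested dopamine, serotonin and histamine receptor genes, the nearest relatives of the adrenergic ones, 1 was higher and 2 lower over all subregions, and 2 of 16 were lower in CA1. In CA1, where the CA1 pyramidal markers were at 1898 to 2352 in trained and 3590 to 5709 in untrained libraries, Htr1b, a Gi-coupled serotonin receptor gene, had a change of -1.51 (SE 0.299, limma adjusted p = 0.00453), which held with any animal left out (up to 0.0357), and of -0.83 over all subregions (SE 0.262, adjusted p = 0.0439), lost without trained 1, trained 2, untrained 1 or untrained 2 (0.0711 to 0.284). The dopamine receptor gene Drd5 had -0.56 in CA1 (SE 0.131, adjusted p = 0.0157), lost without trained 1 or untrained 1 (0.0552 to 0.126), and -0.32 over all subregions (SE 0.083, adjusted p = 0.0157), lost without trained 2 or untrained 1 (0.0952 to 0.132). Htr6 rose by 0.89 over all subregions (SE 0.267, adjusted p = 0.0343), lost without any one of trained 1, 2 or 3 or untrained 1 or 2 (0.0602 to 0.157). With the sex-linked covariate the Htr6 change was 0.54 (adjusted p = 0.820), and Drd5 and Htr1b over all subregions had adjusted p of 0.467 and 0.525. The Htr1b call over all subregions was also lost with a pseudocount of 0.5, no filter or the genes-at-0 covariate (0.0532 to 0.0621). Without CA3 untrained 1 and DG trained 3, the calls over all subregions of Htr6, Htr1b, Grk5, Slc29a4 and Kcnj9 were lost (0.0574 to 0.145). In the 3 comparisons between subregions, 0 genes of these pathway lists passed in limma, as for the receptors and the subregion markers. This does not show that the lists were alike between subregions.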

How the data were processed

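Bulk RNA-seq of 16 hippocampal libraries was analysed from the gene tables that the authors deposited. The labels give polyA RNA as the molecule, while their extract protocol and the methods name an rRNA depletion kit, and which applied was not settled. Reads were trimmed with Trim Galore, aligned with STAR and quantified with Salmon. The genome is GRCm38 in the submitters' processing notes, while the methods name mm10 together with another build. The deposited values were read as a normalized signal, estimated counts divided by a factor of each library, an inference from their decimals and nearly equal sums, with DESeq2 among the tools in the authors' notes. They are not raw counts, so depth and counting error are unknown and no count test was used. A CA3 and a DG library of untrained animals were not analysed here.

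Values were tested as log2(value + 2) with limma 3.58.1 in R 4.3.3 (trend, robust), with Benjamini-Hochberg adjustment over all genes tested and a threshold of 0.05. Genes needed a value of at least 10 in a minimum of 3 libraries within CA1, 2 in CA3, DG and all subregions together, and 5 between subregions. Trained and untrained were compared within each subregion, and over all 16 libraries with subregion as a covariate. Libraries of one animal were treated there as independent, so p-values measure the spread between libraries. Subregions were compared with the animal, as numbered in the labels, as a block. The fits were checked on simulated data with independent libraries and a change larger than most of those given here. That check does not cover shared animals or sex-linked transcripts. Coordinates and lengths come from GENCODE vM21 (GRCm38).

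The 6 members and all gene lists were chosen with earlier results of these data known. Named genes are the members, their family, up to 2 higher and 2 lower genes of each list and comparison by adjusted p, and the 3 genes most correlated with each member; marker genes are named where they move with a result. Some genes that this rule takes are not reported here. Alternatives were a pseudocount of 0.5, no filter, median-of-ratios rescaling, no robust estimation, each animal left out, one fit of all groups, the replicate or animal as a block, and a sex-linked or genes-at-0 covariate. Leaving out CA3 untrained 1 and DG trained 3 was chosen after seeing the data.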

Additional observations from a re-analysis of the deposited data

Results flagged for a closer look

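No member gene had an outlying library in the 30 groups of libraries checked with Dixon's test. These were pooled by subregion or by training. The groups of 2 or 3 libraries of one subregion and training were not checked. Among them is trained DG, where Adrb1 was at 73.4, 73.3 and 53.6. Of 24 signalling and receptor genes picked for a training call, 3 had a training effect that differed between CA1 and DG in one limma fit of all 6 groups, with adjustment over 14673 genes, where 2.75% of all genes did. Since these genes were picked for a call that the difference also rests on, nothing is read from their number. Between CA1 and CA3 and between CA3 and DG 0 of the 24 passed in limma (lowest adjusted p = 0.108 and 0.132, with 6 and 9 at an unadjusted p under 0.05), where 0.0273% and 0.164% of all genes did. The CA1 minus DG difference of the log2 change was -0.44 for Itpr1 (value -0.438, adjusted p = 0.0331), 0.40 for Cacna1a (value 0.401, adjusted p = 0.024) and 0.97 for Prkcd (value 0.968, adjusted p = 0.00213).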

How the results depend on the processing

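The deposited values carry no depth, groups hold 2 or 3 libraries, and sex-linked transcripts follow training. No conclusion is drawn on small changes of the scarce receptors, whose training changes were not tested. Among the tested single-gene values, the members' training changes aside, 513 kept direction and side of the threshold, 114 kept direction but were no longer past it and 23 changed sign; the cause was not tested. Counts over all genes became 1877 (CA1, no filter; main 710), 56, 422 and 1160 (CA3, no robust estimation, one fit and replicate block; main 118), 308 (DG, no robust estimation; main 473), 0 with the sex-linked score and 978 without CA3 untrained 1 and DG trained 3 (all subregions; main 1517), 162 with no filter (CA1 against DG; main 259), and with the genes-at-0 covariate 401, 169 and 1 (CA1 against DG, CA1 against CA3, CA3 against DG; main 259, 44 and 0).

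With each animal left out, 0 members passed between subregions. All-gene counts ranged from 329 (without untrained 1) to 865 in CA1, 7 (without trained 2) to 680 (without trained 1) in CA3, 28 (without trained 2) to 1583 (without untrained 3) in DG, 456 (without untrained 1) to 1873 over all subregions, 19 (without trained 2) to 236 for CA1 against DG, 0 (without trained 3) to 67 (without untrained 3) for CA1 against CA3, and 0 to 1 for CA3 against DG.

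The replicate numbers did not pair the training groups. Same-numbered libraries of a subregion had deviations that correlated at -0.18 to 0.119, over 0.1 in 1 of 7 pairs. With the replicate block, 559, 1160, 500 and 1394 genes passed in CA1, CA3, DG and all subregions, and the calls of Prkce in CA1 (adjusted p = 0.0596) and of Htr6 and Htr1b over all subregions (0.0532 and 0.0576) were lost. Between subregions the animal was the block, though libraries of an animal correlated at only -0.108 to 0.092 over 14 pairs; with no replicate block 281, 31 and 0 genes passed.

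Log2 differences of members between subregions that changed sign were small. With animals left out in turn, CA1 against DG ranged from -0.144 to 0.284 for Adra1a, -0.312 to 0.145 for Adra1b and -0.041 to 0.132 for Adra1d; CA1 against CA3 from -0.315 to 0.029 for Adra1b, -0.075 to 0.113 for Adra1d and -0.049 to 0.204 for Adra2a; and CA3 against DG from -0.116 to 0.228 for Adra1b, -0.06 to 0.064 for Adra1d and -0.045 to 0.275 for Adra2a. The sign also changed with no replicate block for Adra1a, CA1 against DG (0.016), and Adra1b, CA3 against DG (-0.046), with the genes-at-0 covariate for Adra1a and Adra1b, CA1 against DG (both 0.113), and Adra1d, CA3 against DG (0.017), and without the pair of libraries for Adra1b, CA1 against DG (0.037), and Adra1d, CA1 against CA3 (-0.035), and CA3 against DG (0.085).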
